A study of Mus musculus with 8 samples.

Results

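The 34 genes described here are immediate early and activation genes. Cells switch many of them on quickly and without making new protein when a receptor is engaged or the cell is stressed. They were taken as a list of named symbols by a rule that uses no measured value, although earlier results of these data were known when the list was drawn up. Each of the 34 was measured by 1 probe set annotated to that symbol alone, among 21640 probe sets with a single symbol that stand for 19937 genes. The cells were splenic B cells of adult mice sorted for CD22 and B220. HGAL, also called GCET2, is a signalling adaptor normally made in the germinal centre, and here it was placed under the Sca1 (Ly-6E.1) promoter, which is not limited to B cells. The 4 Sca1-HGAL arrays came from mice with this construct and the 4 wild-type arrays from littermates without it, both of the CBAxC57BL/6J strain and with no stimulus named in the labels. The labels call the mice transgenic in one field and knock-in in another. Whether every array comes from a different mouse is not stated. The p-values thus cover only the variation among these samples, part of which may be technical. Xist, expressed from the inactive X chromosome, was high on wild-type replicates 2 and 4 and on no other array. By this gene the wild-type arrays did not all come from the same mouse, and sex was not balanced between the groups.

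In B cells many of these genes belong to the first transcriptional answer to the antigen receptor. Calcium and the mitogen-activated protein kinases act on factors already present, such as the serum response factor with its ternary complex partners, CREB and NFAT, which turn on FOS, JUN, EGR and NR4A genes within minutes. Many of the same genes also answer stress and the handling of living cells, and several encode phosphatases or RNA-binding proteins that end the response.

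Levels are log2 of the authors' normalised intensities, the log2 fold is Sca1-HGAL minus wild-type, and its error is the standard error (SE) from limma. No member passed limma at an adjusted p under 0.05, a threshold that 1 of the 21640 probe sets (0.00462%) passed. The smallest adjusted p of a member was 0.282, for Ier5. At an unadjusted p under 0.05, 4 members were lower in Sca1-HGAL arrays (Ier5, Dusp1, Gadd45a and Fosb) and 0 were higher, against 4.06% of probe sets lower, 5.53% higher and 9.59% in either direction. The 4 Sca1-HGAL values all lay below the 4 wild-type values for 1 member, Ier5, and all above them for none, against 2.3% and 3.15% of probe sets (5.45% in either direction). The log2 fold was negative in 29 members (85.3%), against 43.9% of probe sets, and the median fold was -0.22, against 0.01 over all probe sets. Negative folds numbered 26 after a second quantile normalisation and 25 with array weights. When each array was left out they numbered 24 to 31, with 24 without wild-type replicate 1 or 3 or Sca1-HGAL replicate 1 or 2. Other lists leaned the same way: 8 of 9 B-cell markers (88.9%), 10 of 13 heat shock genes (76.9%) and 17 of 23 regulators upstream of the early genes (73.9%) had negative folds. These counts describe the lists and carry no test, since the members vary together from array to array. In sorted bulk RNA, fewer cells with a high level and less RNA per cell cannot be told apart.

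**Figure D1:**
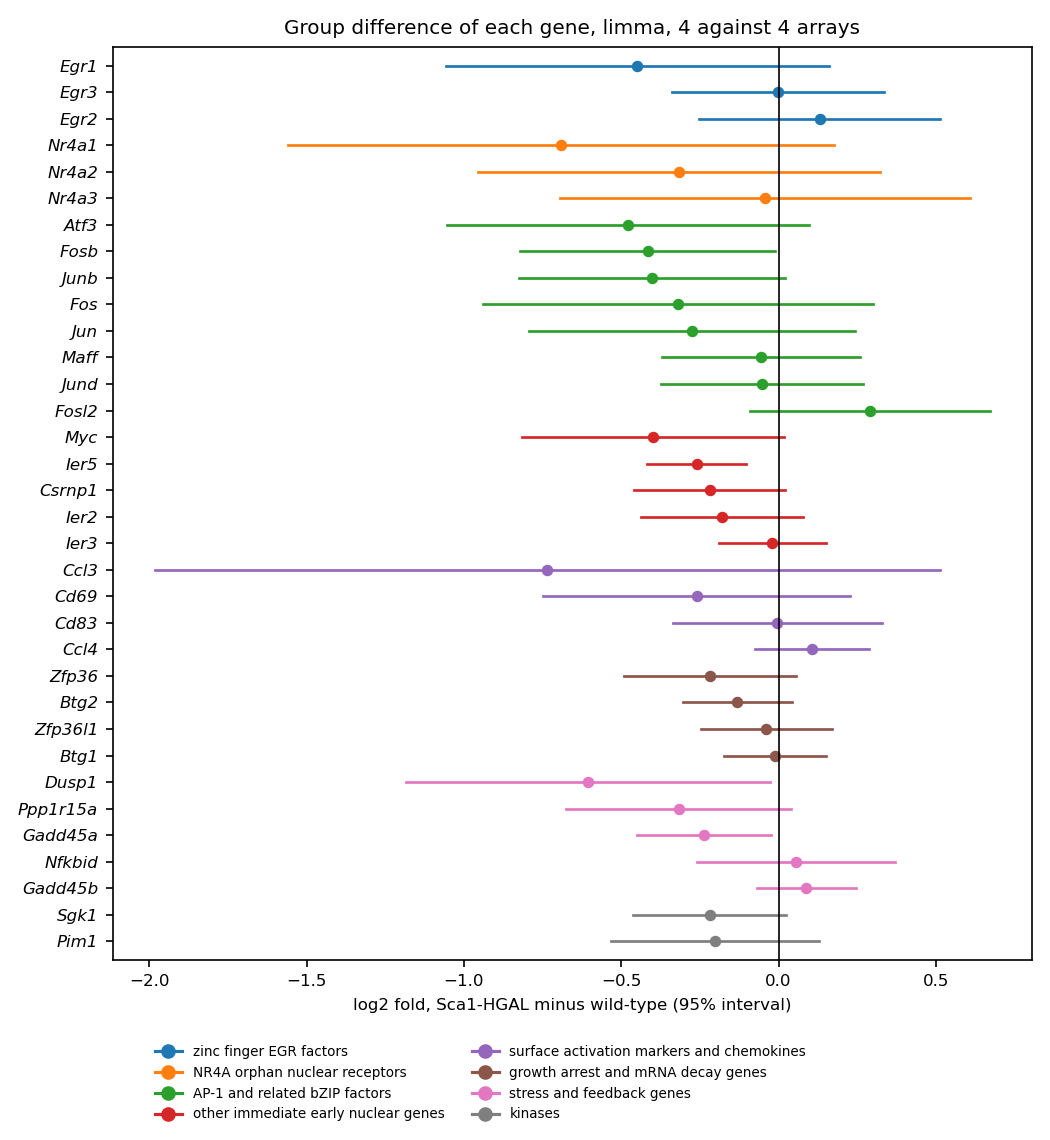
Log2 fold of each of the 34 members (x axis, Sca1-HGAL minus wild-type) with its 95% confidence interval from limma, 4 arrays in each group. Most points lie left of 0, from -0.73 for Ccl3 to 0.29 for Fosl2, and 4 intervals (Ier5, Dusp1, Gadd45a and Fosb) do not reach 0.

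The spread within groups was wide for these genes. The median SD within groups was 0.26 over the members, against 0.11 over all genes and 0.10 over the 5759 genes with a mean in the middle range of the members. Of the 34 members, 22 were in the top 10% of genes by this SD and 16 in the top 5%. The SD was larger among Sca1-HGAL than among wild-type arrays in 24 of 34 members, against 57.6% of all genes.

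The arrays of one genotype did not sit together. Sca1-HGAL replicates 1 and 2 lay below every wild-type array in 21 members each. Replicates 3 and 4 lay below every wild-type array in 4 and 6 members, and replicate 3 lay above every wild-type array in 12. Over all genes the shares below every wild-type array were 27.7%, 19.6%, 18% and 18.6% for replicates 1 to 4, and the share above every wild-type array was 27.3% for replicate 3. Among the wild-type arrays, replicate 1 was the highest of its group in 21 members and replicate 4 the lowest in 19, against 20.8% and 25.5% of all genes. Among the Sca1-HGAL arrays, replicate 3 was the highest in 24 members and replicate 2 the lowest in 19, against 29.4% and 20% of all genes, and no member lay above its group mean on replicate 2. Wild-type replicate 1 and Sca1-HGAL replicate 3 were both the highest of their groups in 16 members, against 8.26% of all genes.

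**Figure D2:**
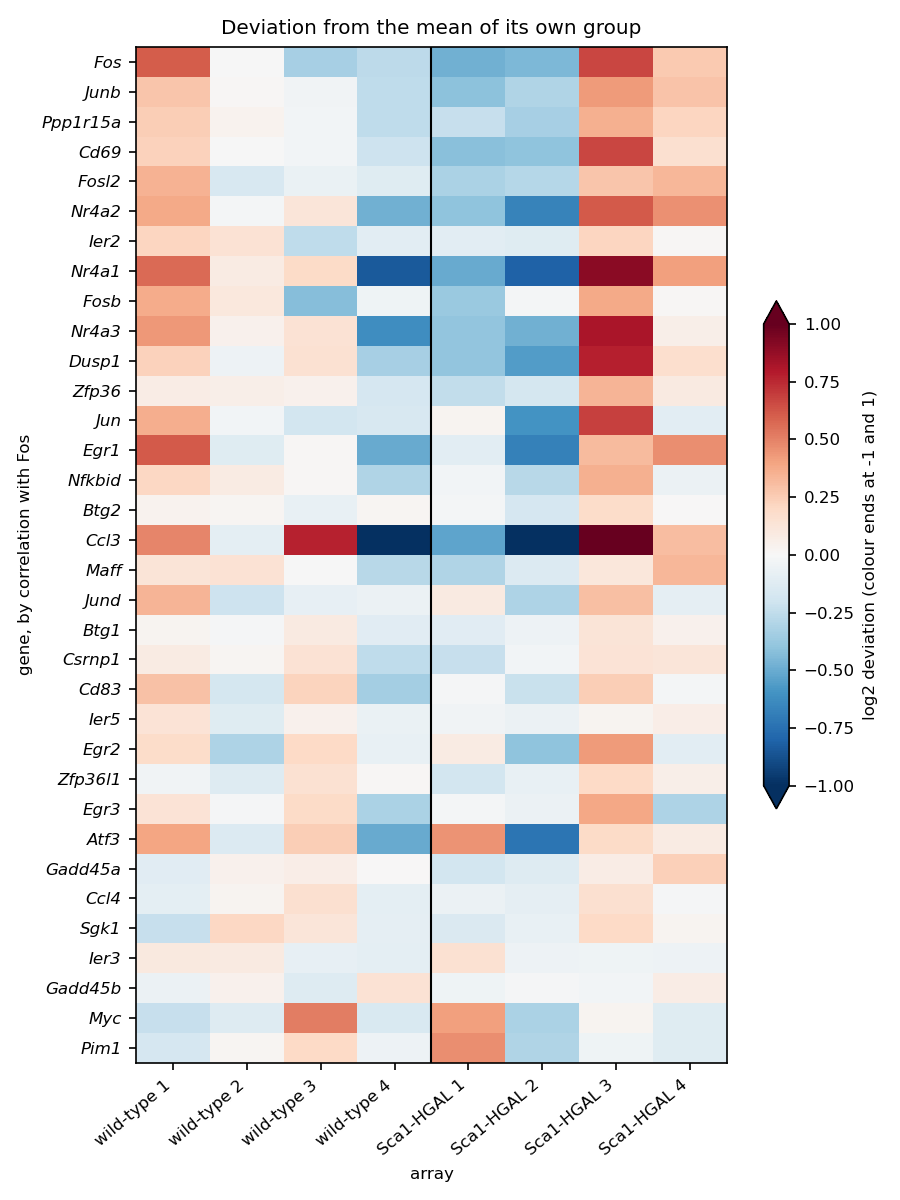
Deviation of each member from the mean of its own group (log2 scale, colour) on each of the 8 arrays, members in rows and arrays in columns. Wild-type replicate 1 and Sca1-HGAL replicate 3 are high and wild-type replicate 4 and Sca1-HGAL replicate 2 low for most members, with median deviations of 0.21, 0.29, -0.16 and -0.28.

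Array by array, a large share of the member pairs moved together. After the group means were removed, 178 of 561 pairs (31.7%) had a Pearson r of at least 0.7 over the 8 arrays, against 5.1% of all pairs of genes. Only 4 pairs had an r of -0.7 or less, while 4.4% of all gene pairs did. The 8 points share their arrays and the normalisation, so these shares are a description. The best connected members were Dusp1 and Nfkbid, each with 20 such partners among the other 33, followed by Ppp1r15a and Ccl3 with 19 and Fos and Cd69 with 18. Egr1, Nr4a1, Nr4a2, Nr4a3, Junb and Zfp36 had 17 each. At the other end, Ier3 and Gadd45b had no partner, and Gadd45a, Myc, Sgk1 and Pim1 had 1 each.

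**Figure D3:**
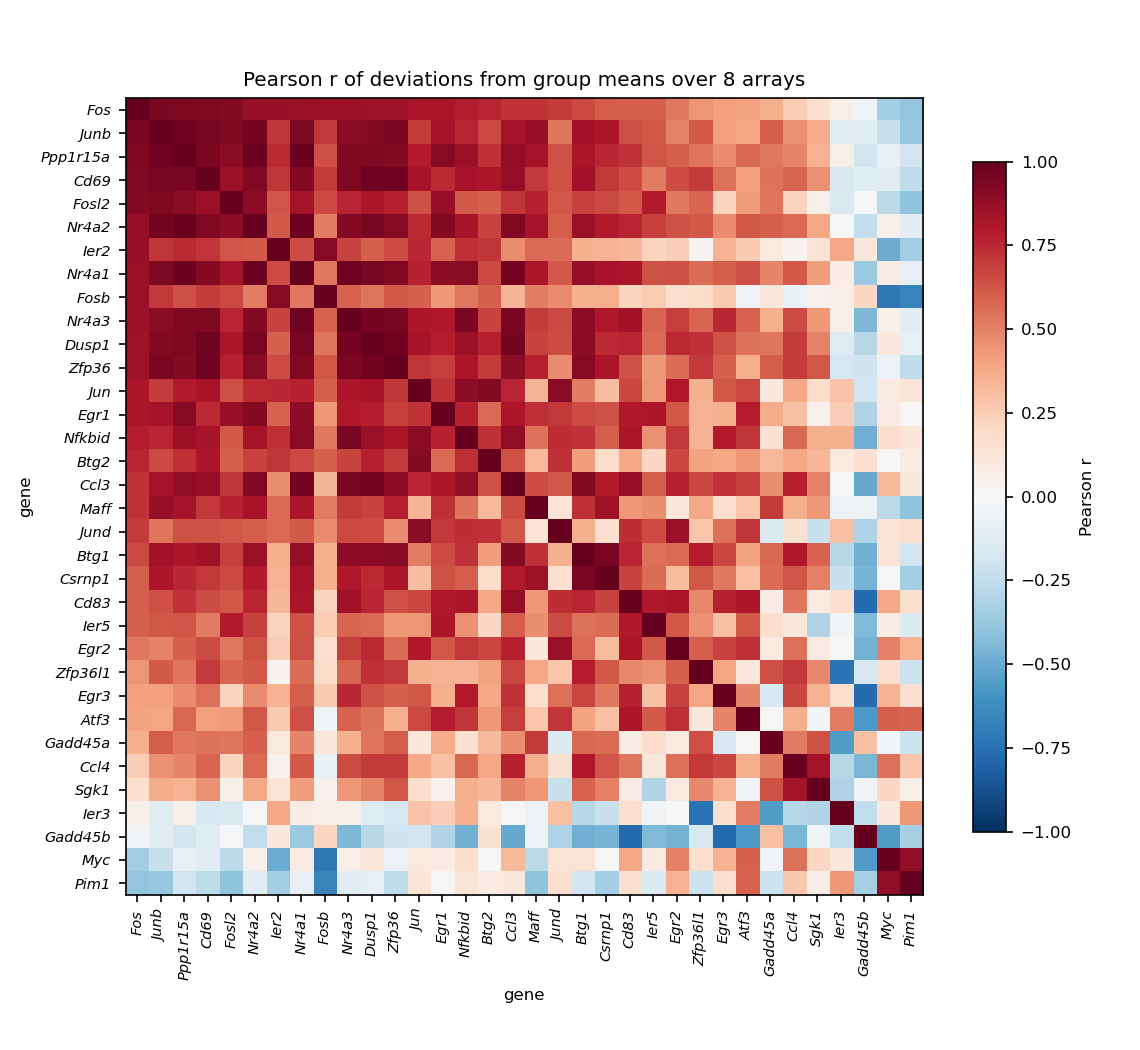
Pearson r between the deviations of each pair of the 34 members over 8 arrays (colour), members in the same order on both axes. A large block of high r holds Fos, Junb, Dusp1, Cd69, the NR4A genes, Zfp36 and Ppp1r15a, and Myc, Pim1, Gadd45b and Ier3 lie outside it.

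The promoters of the best connected members are shown because these genes moved together from array to array. They are the 250 bases before the start of transcription, in RefSeq's annotation of GRCm38.p6, and 27 of the 34 members had an entry, all but Cd69, Cd83, Ccl4, Egr1, Egr3, Ier2 and Myc. Capitals mark TGACG, the core of the cAMP response element that CREB and ATF factors bind, and matches to the NF-kB motif, both on either strand. The full element TGACGTCA holds TGACG on both strands and so counts under both. Nfkbid has 3 entries, and the single one with a match is printed, chosen for that match.

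Dusp1 promoter, chr17:26508473-26508722, minus strand: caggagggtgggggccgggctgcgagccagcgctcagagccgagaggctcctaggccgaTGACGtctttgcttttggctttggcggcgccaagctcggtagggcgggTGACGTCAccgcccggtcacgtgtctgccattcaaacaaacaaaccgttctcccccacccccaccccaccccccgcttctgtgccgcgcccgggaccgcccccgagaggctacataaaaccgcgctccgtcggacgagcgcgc
Nfkbid promoter, chr7:30422156-30422405, plus strand: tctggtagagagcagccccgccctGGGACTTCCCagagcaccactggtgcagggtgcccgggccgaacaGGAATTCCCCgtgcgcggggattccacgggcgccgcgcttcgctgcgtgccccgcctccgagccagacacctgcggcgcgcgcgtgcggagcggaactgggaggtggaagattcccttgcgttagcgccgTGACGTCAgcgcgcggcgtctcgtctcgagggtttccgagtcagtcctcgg
Ppp1r15a promoter, chr7:45526269-45526518, minus strand: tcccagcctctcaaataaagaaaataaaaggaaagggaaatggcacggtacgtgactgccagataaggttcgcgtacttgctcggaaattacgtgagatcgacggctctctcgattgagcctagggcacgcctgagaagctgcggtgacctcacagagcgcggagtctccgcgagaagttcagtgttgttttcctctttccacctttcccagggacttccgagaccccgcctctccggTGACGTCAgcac
Ccl3 promoter, chr11:83649379-83649628, minus strand: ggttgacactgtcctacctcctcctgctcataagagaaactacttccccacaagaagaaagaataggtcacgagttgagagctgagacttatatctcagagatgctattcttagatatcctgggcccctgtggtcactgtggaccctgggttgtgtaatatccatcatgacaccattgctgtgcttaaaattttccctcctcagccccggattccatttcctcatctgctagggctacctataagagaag
Fos promoter, chr12:85473640-85473889, plus strand: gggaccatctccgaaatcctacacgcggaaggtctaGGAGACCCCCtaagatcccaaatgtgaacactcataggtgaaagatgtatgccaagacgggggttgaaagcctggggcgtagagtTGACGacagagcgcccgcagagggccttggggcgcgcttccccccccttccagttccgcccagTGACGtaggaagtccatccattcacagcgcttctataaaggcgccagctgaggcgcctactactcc

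In these windows Dusp1 has TGACGTCA and a separate TGACG at 191 to 187 bases before the start. The Nfkbid window has TGACGTCA and NF-kB matches at 226 to 217 and 181 to 172 bases before the start. Ppp1r15a has TGACGTCA at 12 to 5 bases before the start. Fos has TGACG at 129 to 125 and 66 to 62 and an NF-kB match at 214 to 205 bases before the start. The Ccl3 window has none of these letters, although Ccl3 had as many partners as Ppp1r15a.

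The 27 members with an entry had 44 windows and all 27025 genes had 32851, so a member had more windows in which a motif could be found. Over the 27 members, TGACGTCA was found for 5 (18.5%: Btg2, Dusp1, Maff, Nfkbid and Ppp1r15a), against 1.77% of 27025 genes and 1.55% of 32851 windows. TGACG was found for 16 members (59.3%), against 19.8% of genes and 17.8% of windows. The EGR motif GCGNGGGCG was found for 8 members (29.6%, against 5.33% of genes and 4.7% of windows), and the NF-kB motif for 6 (22.2%, against 4.46% and 3.9%). The AP-1 motif TGANTCA was found for 2 (7.41%, against 7.82% of genes and 6.75% of windows). The CArG box of the serum response factor was found for Egr2 and Zfp36 (7.41%, against 1.62% and 1.47%), and the TATA letters TATAAA for 6 (22.2%, against 14.3% and 12.4%). GGGCGG, a GC box, was found for 22 members (81.5%, against 35.4% and 32.7%). The windows were not matched for base composition. Both strands were searched, and a match is a description of the letters and not a binding site.

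The NR4A genes encode orphan nuclear receptors, and Nr4a1 (Nur77) is widely used as a readout of antigen receptor signalling in lymphocytes. Nr4a1 was at 12.21, 11.73, 11.84 and 10.80 in wild-type replicates 1 to 4 and at 10.45, 10.14, 11.85 and 11.36 in Sca1-HGAL replicates 1 to 4. Sca1-HGAL replicates 1 and 2 lay below all wild-type arrays, while replicates 3 and 4 lay inside their range. The group levels were 11.64 ± 0.60 and 10.95 ± 0.79 (SD, n = 4), a log2 fold of -0.69 (SE 0.39, with adjusted p = 0.614 in limma), and the highest array was 4.19-fold above the lowest. Nr4a2 was at 9.56, 9.16, 9.30 and 8.70 on the wild-type arrays and 8.46, 8.20, 9.48 and 9.32 on the Sca1-HGAL arrays. It had the same low arrays as Nr4a1, with a log2 fold of -0.32 (SE 0.29, with adjusted p = 0.784). Nr4a3 was at 8.22, 7.83, 7.93 and 7.16 on the wild-type arrays and 7.35, 7.26, 8.56 and 7.80 on the Sca1-HGAL arrays. Its groups overlapped, with a log2 fold of -0.04 (SE 0.29, with adjusted p = 0.982), and the sign of this fold turned in 5 other settings. From array to array, Nr4a1 and Nr4a2 moved together with r = 0.98 and rho = 0.95, and Nr4a1 and Nr4a3 with r = 0.97 and rho = 0.98 (n = 8 arrays, exact permutation p = 0.00174 for each, the smallest that 576 orders can give). After adjustment over the 19936 genes set against Nr4a1, the exact permutation p was 0.551 for both r and 0.545 for both rho. Without the 2 arrays farthest from the median of Nr4a1, r was 0.97 for Nr4a2 and 0.95 for Nr4a3.

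The 3 EGR genes encode zinc finger factors induced through the ERK pathway and, for Egr2 and Egr3, also NFAT. Egr1 was at 9.84, 9.11, 9.24 and 8.72 on the wild-type arrays and 8.67, 8.11, 9.10 and 9.24 on the Sca1-HGAL arrays. Wild-type replicate 1 was the highest of the 8 and Sca1-HGAL replicate 2 the lowest, and the groups overlapped. The levels were 9.23 ± 0.47 and 8.78 ± 0.51 (SD, n = 4), a log2 fold of -0.45 (SE 0.27, with adjusted p = 0.649 in limma). Egr2 had a log2 fold of 0.13 (SE 0.17, with adjusted p = 0.858), and its highest array was Sca1-HGAL replicate 3, at 8.87. The interval of Egr3 ran from -0.34 to 0.33, with levels of 9.90 ± 0.23 and 9.90 ± 0.29. Egr1 had 17 partners among the members, Egr2 had 7 and Egr3 had 4.

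The AP-1 group holds Fos, Fosb and Fosl2, which pair with Jun, Junb or Jund to bind DNA, and the related bZIP factors Atf3, a stress-induced repressor, and Maff. Of these 8 members, 7 had a negative fold. Fos was at 9.90, 9.28, 8.95 and 9.02 on the wild-type arrays and 8.49, 8.52, 9.64 and 9.23 on the Sca1-HGAL arrays. Sca1-HGAL replicates 1 and 2 were below all wild-type arrays and replicate 3 above all but wild-type replicate 1. The log2 fold of Fos was -0.32 (SE 0.28, with adjusted p = 0.771 in limma). Fosb was at 11.00, 10.73, 10.20 and 10.58 on the wild-type arrays and 9.84, 10.20, 10.59 and 10.22 on the Sca1-HGAL arrays. The groups overlapped, with a log2 fold of -0.42 (SE 0.18, unadjusted p = 0.045 and adjusted p = 0.506 in limma). Fosl2 was higher in Sca1-HGAL arrays by 0.29 on the log2 scale (SE 0.17, with adjusted p = 0.638), from 7.87 ± 0.24 to 8.16 ± 0.35 (SD, n = 4).

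Jun was at 10.83, 10.44, 10.28 and 10.31 on the wild-type arrays and 10.21, 9.59, 10.87 and 10.08 on the Sca1-HGAL arrays. Sca1-HGAL arrays 1, 2 and 4 were below all wild-type arrays and replicate 3 above them all, so that the log2 fold was -0.28 (SE 0.23, with adjusted p = 0.759 in limma). Junb had levels of 10.32 ± 0.22 and 9.92 ± 0.42 (SD, n = 4), a log2 fold of -0.40 (SE 0.19, with adjusted p = 0.539). Atf3 had levels of 8.55 ± 0.41 and 8.07 ± 0.51 (SD, n = 4), and its log2 fold was -0.48 (SE 0.26, with adjusted p = 0.601). Jund and Maff had folds of -0.05 (SE 0.14) and -0.06 (SE 0.14).

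Fos served as the reference for the shared movement. Over the other 33 members the median r with Fos was 0.72, against 0.03 over all 19936 genes, and 18 members had an r of at least 0.7, against 7.92% of genes. By exact permutation of the arrays within groups, 14 members had an unadjusted p under 0.05 for r, against 10.4% of genes, and no gene passed after adjustment, with a smallest adjusted p of 0.251 for r and 0.355 for rho. Junb had r = 0.94 and rho = 0.95 with Fos (n = 8 arrays, exact permutation p = 0.00694 and 0.0139, adjusted 0.304 and 0.392). Ppp1r15a had r = 0.94 and rho = 0.88 (exact permutation p = 0.0122 and 0.0312, adjusted 0.336 and 0.474). Cd69 had r = 0.92 and rho = 0.98 (exact permutation p = 0.00868 and 0.00694, adjusted 0.313 and 0.360).

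Fosl2 had r = 0.92 and rho = 0.83 with Fos (exact permutation p = 0.0399 and 0.0590, adjusted 0.443 and 0.557), although its fold between the groups had the opposite sign to that of Fos. Nr4a2 had r = 0.87 and rho = 0.81 (exact permutation p = 0.0486 and 0.106, adjusted 0.470 and 0.626). Ier2 had r = 0.87 and rho = 0.81 (exact permutation p = 0.00347 and 0.0139, adjusted 0.271 and 0.392). The lowest were Myc, with r = -0.35 and rho = -0.12 (exact permutation p = 0.417 and 0.839, adjusted 0.841 and 0.985), and Pim1, with r = -0.39 and rho = -0.31 (exact permutation p = 0.476 and 0.569, adjusted 0.866 and 0.905).

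The arrays farthest from the median of Fos were Sca1-HGAL replicate 3 and wild-type replicate 1. Without them, r with Fos was 0.92 for Junb, 0.89 for Ppp1r15a, 0.88 for Cd69, 0.87 for Fosl2, 0.80 for Nr4a2 and 0.66 for Ier2. Of the 18 members with an r of at least 0.7, 10 were still at 0.7 or above without these arrays (Junb, Ppp1r15a, Cd69, Fosl2, Nr4a2, Nr4a1, Dusp1, Zfp36, Egr1 and Maff), or 55.6%, against 44.4% of the 1578 such genes. For the other 8, r fell below 0.7: Fosb (from 0.85 to 0.58), Nr4a3 (0.85 to 0.57), Jun (0.82 to 0.35), Nfkbid (0.78 to 0.35), Btg2 (0.76 to 0.54), Ccl3 (0.72 to 0.46), Jund (0.70 to -0.12) and Ier2. The arrays left out were the extremes of Fos, so a lower r does not show that a relation rested on them. Of the 33 other members, 2 were among the 100 genes, out of 19936, with the highest r with Fos. Outside the list, the highest r belonged to Taf4b, a subunit of the general factor TFIID, with r = 0.99 and rho = 0.98 (exact permutation p = 0.00521 and 0.00694, adjusted 0.284 and 0.360, r = 0.98 without the 2 arrays). Tgoln1, a trans-Golgi protein, had r = 0.99 and rho = 0.95 (exact permutation p = 0.00694 and 0.0122, adjusted 0.304 and 0.392, r = 0.95 without the 2 arrays). Ranbp2 (rho 0.98), Ropn1l (rho 0.90), Mob3a (rho 0.90) and the probe set annotated to Mir361 (rho 0.98) each had r = 0.98, with adjusted exact permutation p-values of 0.313, 0.271, 0.251 and 0.271 for r and 0.360, 0.392, 0.355 and 0.360 for rho. Their r without the 2 arrays was 0.94, 0.94, 0.96 and 0.99.

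**Figure D4:**
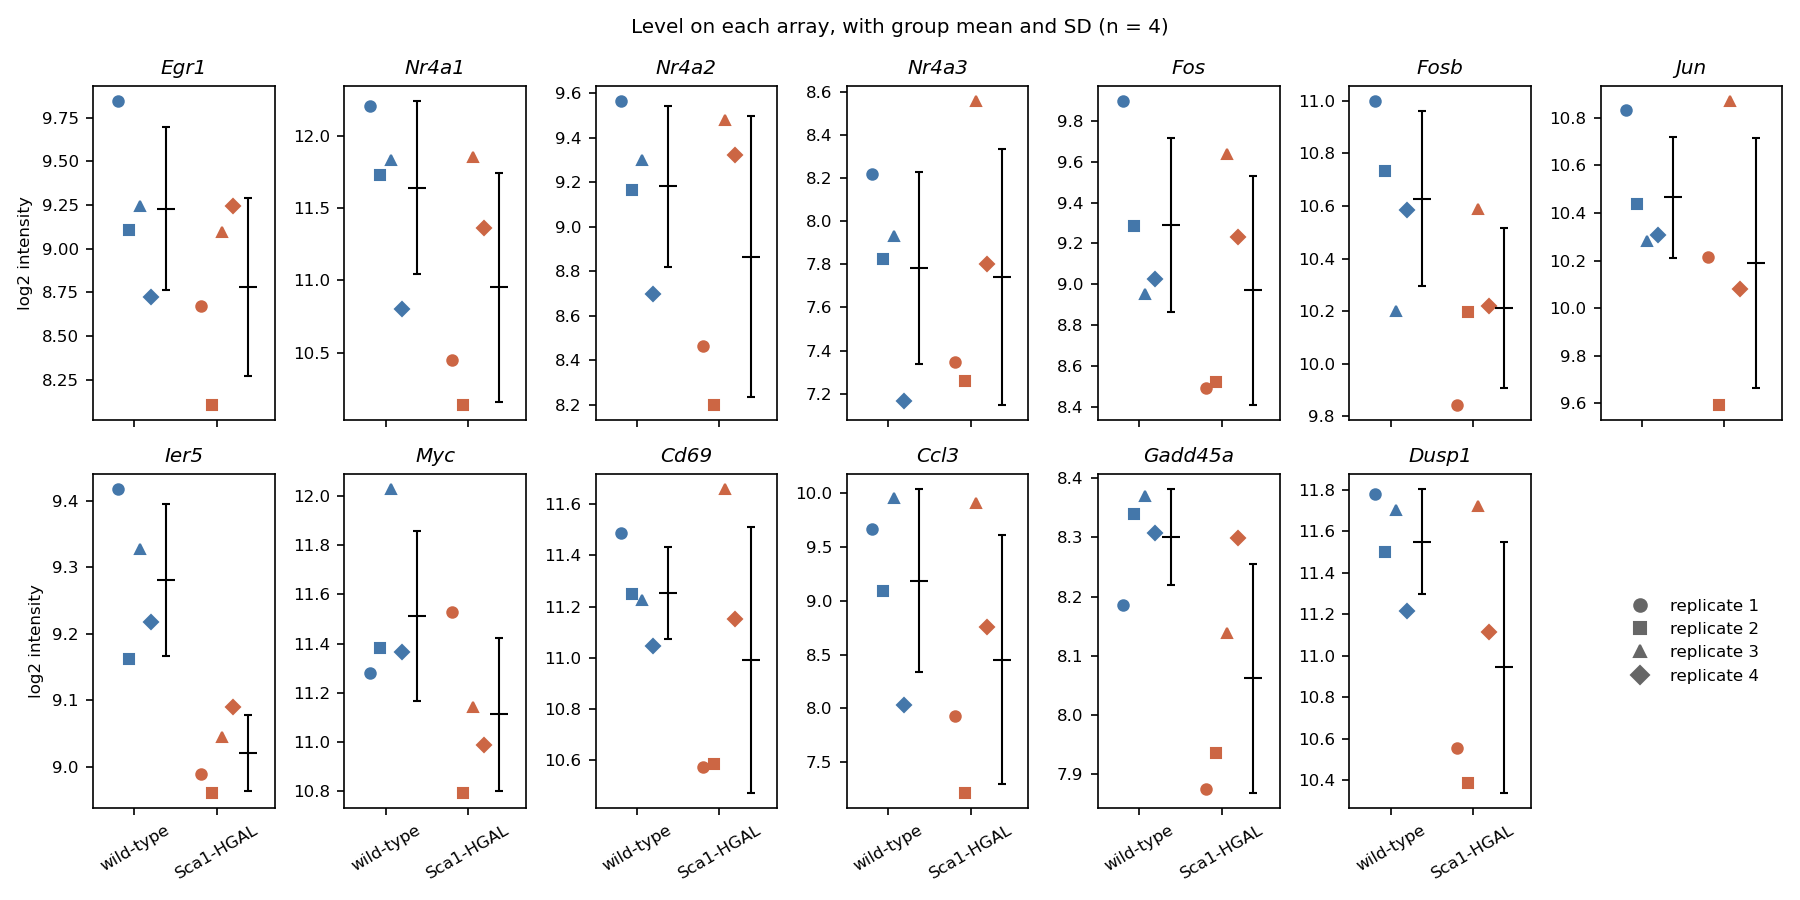
Log2 intensity (y axis) of the members whose values by array are given in the text, on each of the 4 wild-type and 4 Sca1-HGAL arrays, with each array as a point. For Fos, Nr4a1, Dusp1 and Ccl3 the Sca1-HGAL points spread widely, with replicates 1 and 2 low and replicate 3 high. The 4 Sca1-HGAL points of Ier5 lie below those of wild-type.

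Of the other nuclear proteins of the early response, Ier5 was the single member with separated groups. Ier5, a regulator of heat shock factor activity, was at 9.42, 9.16, 9.33 and 9.22 on the wild-type arrays and 8.99, 8.96, 9.04 and 9.09 on the Sca1-HGAL arrays. The highest Sca1-HGAL array lay just under the lowest wild-type array, and Sca1-HGAL replicate 3 did not stand out. The levels were 9.28 ± 0.11 and 9.02 ± 0.06 (SD, n = 4), a log2 fold of -0.26 (SE 0.07, unadjusted p = 0.00411 and adjusted p = 0.282 in limma). Ier2 had a log2 fold of -0.18 (SE 0.12, with adjusted p = 0.672) and Csrnp1 -0.22 (SE 0.11, with adjusted p = 0.558). Ier3 was dim, between 6.21 and 6.44 on all arrays, with a fold of -0.02 (SE 0.08), and a change at this level would be hard to detect.

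Myc drives growth and division of activated B cells, and Pim1 is a kinase that often acts with it. Myc was at 11.28, 11.38, 12.03 and 11.36 on the wild-type arrays and 11.53, 10.79, 11.14 and 10.99 on the Sca1-HGAL arrays. Here wild-type replicate 3 was the highest array and Sca1-HGAL replicate 1 the next, and the other 3 Sca1-HGAL arrays were lower than any wild-type array. The log2 fold was -0.40 (SE 0.19, with adjusted p = 0.538 in limma). Pim1 was highest on the same arrays, Sca1-HGAL replicate 1 at 10.49 and wild-type replicate 3 at 10.42, with a log2 fold of -0.20 (SE 0.15, with adjusted p = 0.717). Myc and Pim1 moved together with r = 0.89 and rho = 0.86 (n = 8 arrays, exact permutation p = 0.00174 and 0.0191, adjusted over all genes set against Myc 0.733 and 1), and r was 0.77 without wild-type replicate 3 and Sca1-HGAL replicate 1. This pair was named after its values were seen. Sgk1, a kinase downstream of PI3K, had a log2 fold of -0.22 (SE 0.11, with adjusted p = 0.562).

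Cd69 and Cd83 are surface proteins of activated lymphocytes, and Cd69 keeps cells in lymphoid tissue by drawing the sphingosine-1-phosphate receptor inward. Cd69 was at 11.49, 11.25, 11.23 and 11.05 on the wild-type arrays and 10.57, 10.59, 11.66 and 11.15 on the Sca1-HGAL arrays. Sca1-HGAL replicates 1 and 2 were the lowest of the 8 arrays and replicate 3 the highest. The levels were 11.25 ± 0.18 and 10.99 ± 0.52 (SD, n = 4), with a log2 fold of -0.26 (SE 0.22, with adjusted p = 0.759 in limma). Cd83 had levels of 11.24 ± 0.31 and 11.23 ± 0.19, and the interval of its fold ran from -0.34 to 0.33.

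Ccl3 and Ccl4 encode inflammatory chemokines that activated B cells release to draw in T cells and monocytes. Ccl3 had the widest range of the members, 6.69-fold between its lowest and highest arrays. It was at 9.67, 9.09, 9.96 and 8.03 on the wild-type arrays and 7.93, 7.21, 9.92 and 8.76 on the Sca1-HGAL arrays. Wild-type replicate 4 was low with Sca1-HGAL replicates 1 and 2, and Sca1-HGAL replicate 3 was level with the highest wild-type arrays. The log2 fold was -0.73 (SE 0.56, interval -1.98 to 0.51, limma adjusted p = 0.73). The probe set of Ccl4 was dim, from 6.11 to 6.47 on all arrays, with a log2 fold of 0.11 (SE 0.08, with adjusted p = 0.73).

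Genes that close the early response, or answer stress, had folds of both signs. Dusp1, a phosphatase that switches off p38, JNK and ERK, was at 11.78, 11.50, 11.70 and 11.21 on the wild-type arrays and 10.55, 10.39, 11.72 and 11.11 on the Sca1-HGAL arrays. Replicates 1, 2 and 4 of Sca1-HGAL lay below all wild-type arrays and replicate 3 among the highest. The level was 11.55 ± 0.25 in wild-type arrays, with a log2 fold of -0.61 (SE 0.26, unadjusted p = 0.0417 and adjusted p = 0.503 in limma), or 0.657 times the wild-type level. Ppp1r15a (GADD34), which directs removal of the phosphate from the translation factor eIF2 alpha, had levels of 9.61 ± 0.21 and 9.29 ± 0.33 (SD, n = 4) and a fold of -0.32 (SE 0.16, with adjusted p = 0.570). Nfkbid, a nuclear inhibitor of the NF-kB family, had a fold of 0.06 (SE 0.14) while it had 20 partners among the members. Its movement between arrays was shared with the list, and its mean was 0.06 higher in Sca1-HGAL arrays.

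Gadd45a and Gadd45b are stress sensors that act on p38 and the cell cycle. Gadd45a was at 8.19, 8.34, 8.37 and 8.31 on the wild-type arrays and 7.88, 7.94, 8.14 and 8.30 on the Sca1-HGAL arrays. In all, 3 of 4 Sca1-HGAL arrays were lower than any wild-type array, and replicate 4 was inside their range. The log2 fold was -0.24 (SE 0.10, unadjusted p = 0.0316 and adjusted p = 0.476 in limma). Gadd45b had 0.09 (SE 0.07, with adjusted p = 0.744) and no partner among the members.

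Zfp36 (tristetraprolin) and Zfp36l1 bind AU-rich mRNAs and promote their decay, and Btg1 and Btg2 restrain division and recruit deadenylases. All 4 had negative folds and none passed. Zfp36 had levels of 11.07 ± 0.11 and 10.86 ± 0.27 (SD, n = 4), a log2 fold of -0.22 (SE 0.12, with adjusted p = 0.615 in limma), and Btg2 -0.13 (SE 0.08, with adjusted p = 0.638). Zfp36l1 had -0.04 (SE 0.09) and Btg1 -0.01 (SE 0.07). Zfp36 moved with Cd69 at r = 0.97 and rho = 0.98 (n = 8 arrays, exact permutation p = 0.00174 and 0.00347, adjusted over all genes set against Cd69 0.237 and 0.302), and r was 0.91 without the 2 arrays farthest from the median of Cd69. This pair, too, was named after its values were seen.

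The counts between the groups depended on single arrays. Without Sca1-HGAL replicate 3, 14 members were lower at an unadjusted p under 0.05 and 0 higher, against 4.87% of probe sets lower and 11% in either direction. Their smallest adjusted p was then 0.108, and 40 probe sets, none a member, passed limma (0.185%). Without wild-type replicate 4, 8 members were under 0.05 (9.04% of probe sets in either direction). Leaving out wild-type replicate 1 or 3, or Sca1-HGAL replicate 1 or 4, gave 5, 3, 5 and 4 members, against 8.35%, 7.74%, 11.9% and 7.76% of probe sets. Without wild-type replicate 2 or without Sca1-HGAL replicate 2 the count was 1, Ier5, against 8.3% and 7.24%. Xist, which is expressed from the inactive X chromosome, was high on 2 arrays, wild-type replicates 2 and 4. Without both, 7 members were under 0.05 (6 lower, and Gadd45b higher), against 8.07% of probe sets, and 4 had separated groups, against 17.7%. The mean level of the 4 measured sex-linked genes was 8.83 and 8.71 on wild-type replicates 1 and 3, but 6.85 and 6.78 on replicates 2 and 4. On the Sca1-HGAL arrays it ran from 8.63 to 8.81.

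Further early response genes gave a lower share of negative folds. Of 46 listed, 44 were measured, all but Cyr61 and Btg3, which were not analysed here. The median fold was -0.09, and 30 of 44 (68.2%) were negative, against 43.9% of probe sets. At an unadjusted p under 0.05, 8 were lower and 2 higher, against 4.06% and 5.53% of probe sets, with none past adjustment. The 4 genes of this list with the smallest p-values had folds of both signs. Dusp4, a phosphatase of ERK, had a wild-type level of 8.19 ± 0.29 and a Sca1-HGAL level of 7.51 ± 0.19 (SD, n = 4), a log2 fold of -0.68 with SE 0.15 and adjusted p = 0.166 in limma. Dusp6, another ERK phosphatase, was at 9.91 ± 0.13 and 9.36 ± 0.26, a log2 fold of -0.55 (SE 0.12, with adjusted p = 0.178). Nab1, a corepressor of EGR factors, had -0.24 (SE 0.07, with adjusted p = 0.294). Socs3, an inhibitor of cytokine signalling, was at 8.17 ± 0.02 and 8.54 ± 0.09, a log2 fold of 0.37 (SE 0.06, with adjusted p = 0.111), and its dimmer probe set had 0.07 (SE 0.06). The groups of these 4 genes did not overlap, as in 5.45% of all probe sets. Genes picked for a small p tend to have separated groups, so this adds nothing to their p-values.

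Of 30 listed regulators that act before the early genes, 23 were measured, with a median fold of -0.05 and negative folds in 17 (73.9%). At an unadjusted p under 0.05, 1 was lower and 2 higher, against 4.06% and 5.53% of probe sets. Map2k4, a kinase upstream of JNK, had -0.19 (SE 0.06, with adjusted p = 0.330 in limma), and the ternary complex factors Elk4 and Elk3 had 0.17 (SE 0.07, with adjusted p = 0.444) and 0.24 (SE 0.10, with adjusted p = 0.498). Mef2c, a factor needed for B-cell proliferation after receptor engagement, had -0.14 (SE 0.06, with adjusted p = 0.527).

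Heat shock genes, which answer misfolded protein and warming, shared some of the high and low arrays of the members. Of 16 listed, 13 were measured, and their median r with Fos was 0.74, with 9 at 0.7 or above. Of these 9, 3 (Dnaja1, Hsph1 and Hspa5) stayed there without the 2 arrays farthest from the median of Fos. That is 33.3%, against 44.4% of the 1578 genes with such an r. Of the 13, 9 were the highest of their group on wild-type replicate 1 and 10 on Sca1-HGAL replicate 3, and 9 were the lowest on Sca1-HGAL replicate 2, against 20.8%, 29.4% and 20% of all genes. On wild-type replicate 4, the lowest wild-type array for most members, 3 of the 13 were the lowest of their group, against 25.5% of all genes. Dnaja1, a partner of the HSP70 chaperones, had r = 0.97 and rho = 0.98 with Fos (n = 8 arrays, exact permutation p = 0.00347 and 0.00694, adjusted 0.271 and 0.360), and r = 0.93 without the 2 arrays farthest from the median of Fos. Hsph1, an exchange factor of HSP70, had r = 0.91 and rho = 0.95 (exact permutation p = 0.00694 and 0.0122, adjusted 0.304 and 0.392), and r = 0.77 without them. Dnajb1 had r = 0.85 and rho = 0.76 (exact permutation p = 0.00174 and 0.00347, adjusted 0.251 and 0.355), and r = 0.53 without them. Chordc1 had r = 0.84 and rho = 0.57 (exact permutation p = 0.0399 and 0.215, adjusted 0.443 and 0.732), which dropped to 0.20 without them. Between the groups, 1 of the 13 heat shock genes, Hspe1, was lower at an unadjusted p under 0.05, against 4.06% of probe sets. Its log2 fold was -0.27 (SE 0.12, with adjusted p = 0.503 in limma), and the median fold of the list was -0.11. Hspd1 had -0.18 (SE 0.11, with adjusted p = 0.646) and Chordc1 -0.31 (SE 0.19, with adjusted p = 0.646), while Bag3 had 0.10 (SE 0.08, with adjusted p = 0.724).

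**Figure D5:**
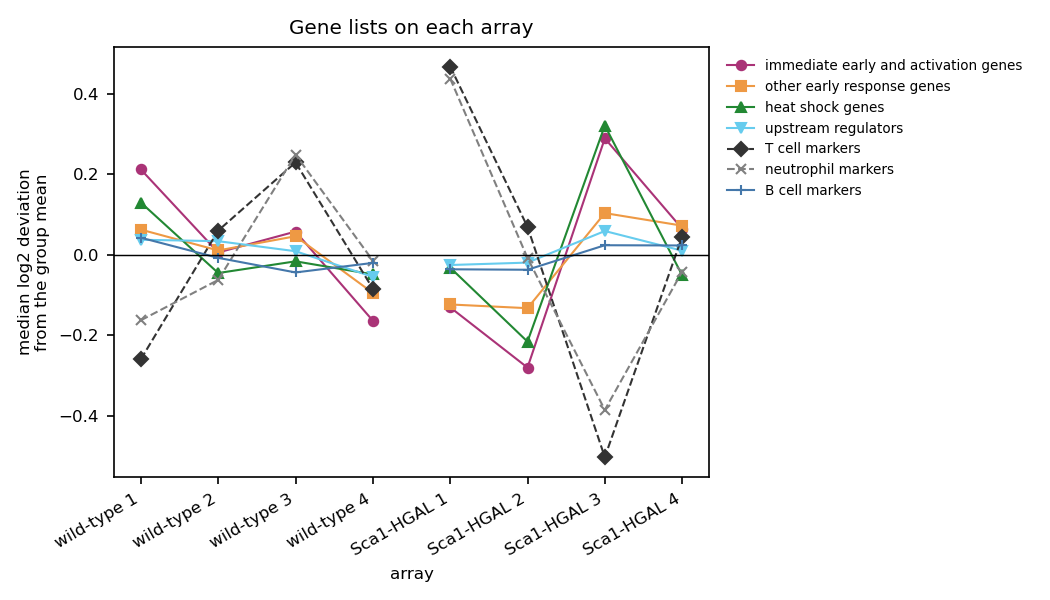
Median deviation from the group mean (y axis, log2 scale) of gene lists on each of the 8 arrays (x axis). Members and heat shock genes are high on wild-type replicate 1 and Sca1-HGAL replicate 3 (heat shock genes at 0.13 and 0.32), where T cell markers are low (-0.26 and -0.50).

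Over all 8 arrays, most markers of T cells, NK cells and neutrophils moved in the direction opposite to Fos. T cell markers, 9 of 10 measured and 8 above log2 6, had a median r of -0.81 with Fos, from -0.86 (Thy1) to -0.30 (Trat1). Without the 2 arrays farthest from the median of Fos, r of these markers ran from -0.74 (Cd3g) to 0.36 (Trat1). Their summed intensity ran from 1486 to 2066 on wild-type and from 1165 to 3039 on Sca1-HGAL arrays, with 8 of 9 markers lowest in their group on wild-type replicate 1, 8 lowest on Sca1-HGAL replicate 3 and 8 highest on Sca1-HGAL replicate 1. Neutrophil markers, 11 of 11 measured and 9 above log2 6, had a median r of -0.73 with Fos and summed intensities of 829 to 1274 and 947 to 2354. Between the groups, all 11 neutrophil markers had positive folds, with a median of 0.36. At an unadjusted p under 0.05, 6 were higher in Sca1-HGAL arrays, against 5.53% of probe sets. The groups of 2 (Elane and Mmp9) were separated, against 3.15%, and the smallest limma adjusted p was 0.305. At the same p, 3 of 8 dendritic cell markers were lower and 3 higher, against 4.06% and 5.53% of probe sets. The groups were separated in 3 lower and 2 higher dendritic cell markers, against 2.3% and 3.15%. Of 7 plasma cell markers, 2 were lower and 1 higher, and 2 of 8 NK cell markers were lower, against the same shares. From the macrophage and monocyte list, 1 of 11 markers was higher, with separated groups. The smallest limma adjusted p in these lists was 0.230, 0.163, 0.272 and 0.122, in that order. NK cell markers, 8 of 8 measured and 5 above log2 6, also had a median r of -0.73, with sums of 891 to 1256 and 630 to 1290. Their r ran from -0.81 (Nkg7) to -0.15 (Gzmb), and without the same 2 arrays from -0.63 (Nkg7) to 0.30 (Gzmb). Macrophage and monocyte markers, 11 of 12, had a median r of -0.11, with 5 of 11 positive, and sums of 4081 to 4835 and 3848 to 5100. The dendritic cell and plasma cell lists, 8 of 8 and 7 of 7 measured, had a median r of -0.44 and -0.51. No intensity in the table was 0, the lowest being 4.94. B-cell markers, 9 of 10, stood at a group mean of 11.85 or more each, with a median r of 0.29. The part of these markers and of the heat shock genes in the spread of the members was not tested.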

How the data were processed

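Total RNA of the sorted cells went onto Mouse Gene 1.0 ST arrays from Affymetrix, 4 for each genotype. The deposited table holds linear intensities, which the submitters' processing notes credit to RMA, a method of background correction, quantile normalisation and probe summary. Its version and its annotation were not given in the sources used here. Since RMA brings arrays close to one distribution, a shift common to most genes would go unseen. Intensities ran from 4.94 to 24302, and the median of an array from 145 to 151. The number of arrays limits the precision.

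Log2 of these values was taken without a pseudocount, a step the design had allowed for. Of 34760 probe sets, the platform table gave 21640 with 1 symbol, which were tested, 1321 with several and 11799 without. The brightest probe set stood for a gene, and each member had 1. The groups were compared with limma 3.58.1 (R 4.3.3; lmFit, eBayes, two-sided, Benjamini-Hochberg over all tested). The code was checked on simulated data. Correlations used deviations from group means and two-sided exact permutation of arrays within groups (576 orders), adjusted over all genes set against the reference gene. Motifs were searched in RefSeq promoter windows with Python 3.11.15.

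The members and lists were chosen with earlier results of these data known. Values by array are given for members with an unadjusted p under 0.05, for Fos, Jun, Egr1, Nr4a1, Myc and Cd69, and for the 6 members of largest SD. From the other lists up to 4 genes with the smallest p are named, and the 4 heat shock genes with the highest correlation with Fos. Single genes outside these rules were named after their values were seen. The settings varied were the normalisation (a second quantile step, or centring on the median), a filter at log2 6, array weights, a replicate block, a trended robust prior, the average over probe sets of a gene and leaving out arrays. No array was left out of the reported fit. Replicate numbers did not pair the arrays.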

Additional observations from a re-analysis of the deposited data

Results flagged for a closer look

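In 106 groups of 4 arrays, one for each genotype of the members and of the other genes described by name, 5 had an array far from the rest by Dixon's criterion, where chance gives about 1 in 20 (5.3 of 106). Ier3 was at 6.44 on Sca1-HGAL replicate 1, with the others at 6.24. Myc was at 12.03 on wild-type replicate 3, with the others from 11.28 to 11.38. Btg2 was at 11.03 on wild-type replicate 3, with the others from 11.13 to 11.14. Zfp36 was at 10.9 on wild-type replicate 4, with the others from 11.11 to 11.14. Nab1 was at 10.3 on wild-type replicate 3, with the others from 10.46 to 10.49. The cause of these values was not tested.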

How the results depend on the processing

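No member passed limma at an adjusted p under 0.05 in any of the 16 alternatives run. At an unadjusted p under 0.05 in limma, the count of 4 members (against 9.59% of probe sets) changed with the setting. It became 2 after a second quantile normalisation (against 9.39%) and 2 with a trended robust prior (9.55%). It was 7 without the 2 arrays with high Xist (8.07%), and 1 to 14 when each array was left out (7.24% to 11.9%). The number with separated groups, 1 (against 5.45% of probe sets), became 4 without the arrays with high Xist, against 17.7%. It was 1 to 4 when each array was left out, for which the share of all probe sets is not given here. Members that moved together made 178 pairs, and 109 at a limit of 0.8 (19.4%, against 2.1% of all gene pairs). When each array was left out, they made 142 to 234 pairs (25.3% to 41.7%, against 6.63% to 7.56% of all gene pairs). The log2 fold of Nr4a3, -0.04, became 0.0067 with array weights and ran from -0.31 to 0.12 when each array was left out, turning its sign without wild-type replicate 1 (0.10) or 3 (0.0054) and without Sca1-HGAL replicate 1 (0.09) or 2 (0.12). The cause was not tested. The other 12 members with fold values followed through every alternative (Ccl3, Cd69, Dusp1, Egr1, Fos, Fosb, Gadd45a, Ier5, Jun, Myc, Nr4a1 and Nr4a2) kept their sign, but not their size when each array was left out: Ccl3 ran from -1.22 to -0.32, Nr4a1 from -0.99 to -0.42, Dusp1 from -0.86 to -0.42, Egr1 from -0.62 to -0.22, Fos from -0.54 to -0.12, Myc from -0.54 to -0.23, Nr4a2 from -0.52 to -0.09, Jun from -0.50 to -0.08, Cd69 from -0.48 to -0.12, Fosb from -0.56 to -0.29, Gadd45a from -0.32 to -0.18 and Ier5 from -0.30 to -0.21. The median fold of the members ran from -0.27 to -0.11 when each array was left out. With the replicate number as a block, 5 members were under an unadjusted 0.05, against 8.44% of probe sets. Same-numbered arrays did not deviate together (correlations of -0.17 to 0.04), so the numbers were not used as pairs. Ier3 and Ccl4, near log2 6, are the members whose dim signal limits what could be seen.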
